A study of Mus musculus with 16 samples.

Results

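Chorioallantoic-derived erythroid progenitors are a cell type of the extended mouse gastrulation atlas, and 80 cells of the *Stat3* chimera data carried this label among 37841 cells used, beside 86 other labels. A cell was counted when the authors' label transfer gave it this name, when it had passed their quality filter and when it was not called a doublet. WT cells, sorted as tdTomato-negative, were further required to hold no tdTomato transcript, which removed 3 of 83 cells. Of the 80 cells, 77 were WT and 3 were *Stat3* null. The cells are described beside the 2194 cells labelled Erythroid, the main red cell label of the same embryos.

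Red blood cells of the mouse embryo arise in waves. The primitive wave begins in the blood islands of the yolk sac and fills the early circulation with large cells that carry the embryonic globins Hba-x (zeta), Hbb-y (epsilon y) and Hbb-bh1 (beta H1). Later waves pass through erythro-myeloid progenitors and haematopoietic stem cells. The allantois and the mesodermal layer of the chorion are extra-embryonic mesoderm. Allantois and chorion fuse as the placenta forms, and both have been described as sites of blood formation.

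In this study *Stat3* null embryonic stem cells carrying a constitutive H2B-tdTomato reporter were injected into WT blastocysts, and chimeras were recovered on 3 embryonic days, E7.5, E8.5 and E9.5. Dissociated whole embryos were separated by flow cytometry into tdTomato-positive donor cells (*Stat3* null) and tdTomato-negative host cells (WT, CD1 strain), so that both genotypes of a stage shared the same embryos and every embryo was a chimera. Pools of embryos were used for the earlier days and single embryos at E9.5, where libraries outnumber embryos and so share them. Donor lines were also CD1, of the breeding stock used for the hosts, and were grown from picked colonies, so that donor cells differed from host cells by their passage through culture as well as in genotype. *Stat3* null and WT each gave 2 libraries at E7.5, 2 at E8.5 and 4 at E9.5, called A to D here, and nothing in the labels ties a library of cells to an embryo pool, so the spread between libraries may be partly technical.

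Libraries held 360 to 4327 cells and 20682659 to 138613245 unique molecular identifiers (UMIs, each counting 1 captured transcript). *Stat3* reached 1.16 to 2.53 CPM (UMIs of a gene scaled to a common library total) in the 8 null libraries and 6.14 to 9.31 in the 8 WT libraries, with no overlap. The labelled WT cells held 15 *Stat3* UMIs, of which the 47 cells of E8.5 WT A held 1 in 837374 UMIs, while the library as a whole stood at 7.73 CPM. Those of E8.5 WT B held 7 in 432599 and those of E9.5 WT A 3 in 310080. The labelled null cells held 0, out of only 50071 UMIs in all. No barcode of the 77 WT labelled cells recurred in another library, against 34 of 1433 WT Erythroid cells.

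The label was seen mainly in 1 library. E8.5 WT A held 47 labelled cells, or 1.85% of its cells (exact 95% binomial interval 1.36% to 2.45%, counting error only). E8.5 WT B held 14, or 0.366% (0.200% to 0.613%). E8.5 null A held 2 (0.0522%, 0.00632% to 0.188%). E8.5 null B held 0 of 1146 cells (exact interval 0% to 0.321%, and 0.262% as the limit for 3 cells). At E9.5, WT A held 11 cells (0.357%), WT B 2, WT C 0 and WT D 3, while null C held 1 and null A, B and D held 0. No cell of the 4 E7.5 libraries carried the label.

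**Figure D1:**
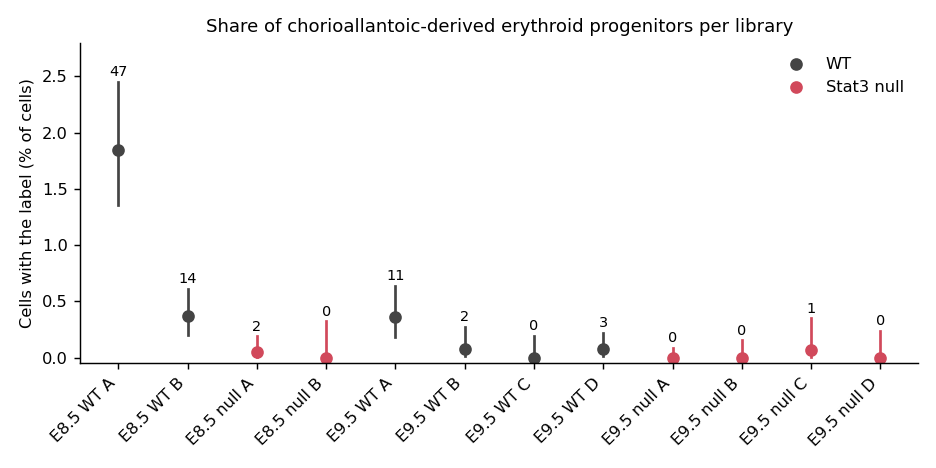
Share of cells labelled chorioallantoic-derived erythroid progenitors in each E8.5 and E9.5 library (percent of cells used), with exact 95% binomial intervals as lines and the number of labelled cells above each point. E8.5 WT A stands at 1.85%, the other libraries lie between 0 and 0.366%.

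Null cells were compared with WT cells at E8.5, which asks whether cells without *Stat3* received this label as often as host cells. The log2 ratio of null over WT cell numbers was -4.73 (SE 1.36, edgeR quasi-likelihood test over 68 cell types with at least 20 cells, adjusted p = 0.338). The edgeR test called 0 of the 68 types, a background of 0% in either direction. Before adjustment edgeR had 3 types under 0.05, this label among them. DESeq2 gave -4.91 (adjusted p = 0.224) and also called 0 types, with 1 type at an unadjusted p under 0.05. With 1 library left out, the fit was taken over all stages, so that the spread for a single remaining E8.5 library was borrowed from the other stages. That fit gave an edgeR adjusted p of 0.109 with every library in, 0.0230 when WT B of E8.5 was dropped, and at least 0.975 when either null library was. In the first fit, of the E8.5 libraries alone, the Erythroid label itself had a log2 ratio of -0.30 (SE 0.20, edgeR adjusted p = 0.9997).

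Among all cells labelled either way, the chorioallantoic label took 9.94% (7.39% to 13.0%) in E8.5 WT A, 2.20% (1.21% to 3.67%) in WT B, 0.336% (0.0407% to 1.21%) in null A and 0 of 131 in null B. The mean was 6.07% ± 5.47 in WT and 0.168% ± 0.237 in null libraries (SD, n = 2 each). The null values did not overlap the WT values, with a difference of -5.90 percentage points (exact two-sided permutation test over 4 libraries, p = 0.333, the smallest that this design allows). The difference was -2.03 points without WT A and -9.77 points without WT B. When cells under 0.5% mitochondrial UMIs were left out, the chorioallantoic label held 3 of 331 cells labelled either way in WT A and 14 of 584 in WT B, and the difference was -1.47 points. At E9.5 the null libraries held 2 to 9 Erythroid cells each and no test was made.

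The marker given for the label is Hbb-bh1. It made up 0.617% of the UMIs of the labelled cells in E8.5 WT A, 0.648% in E8.5 WT B and 0.626% in E9.5 WT A, the 3 libraries with at least 10 cells of both labels. In the Erythroid cells of those libraries it made up 2.34%, 1.82% and 2.27%, so that the marker was lower in the labelled cells in all 3. Among all 77 WT labelled cells it ranged from 0.227% to 1.19%, with a median of 0.547%. The background in cells that should lack globin was 0.0131%, 0.0253% and 0.00898% in the Allantois cells of the 3 libraries.

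The 3 most abundant other globins were lower than in Erythroid cells by much the same factor. Hba-x, the embryonic alpha-like chain, made up 4.08%, 3.11% and 3.08% of UMIs in labelled cells and 10.8%, 7.92% and 9.76% in Erythroid cells. Hbb-y, an embryonic beta-like chain, made up 2.77%, 1.14% and 4.87% against 7.27%, 2.97% and 15.5%. Hba-a1, the adult-type alpha chain, made up 0.825%, 0.403% and 1.37% against 2.12%, 1.02% and 4.11%. The ratio of labelled to Erythroid cells was 0.379, 0.392 and 0.315 for Hba-x, 0.381, 0.382 and 0.315 for Hbb-y, and 0.389, 0.393 and 0.334 for Hba-a1. The 3 ratios lay close together within a library although Hbb-y itself ranged from 1.14% to 4.87% between the libraries, and the ratio for Hbb-bh1 was lower, at 0.263, 0.357 and 0.275. The scarcer globins varied more. Hbb-bs, an adult beta chain, had ratios of 0.580, 0.565 and 0.132. Hbb-bt, the other adult beta chain, was higher in labelled cells of E8.5 WT A, at 0.00287% of UMIs against 0.00169% (ratio 1.69, 24 labelled-cell UMIs), and was counted by 0 and 3 labelled-cell UMIs in the other libraries. Hbb-bh2 was counted by 1, 0 and 0 UMIs, too few for a ratio. Hba-a2, the second adult-type alpha gene, had ratios of 0.422, 0.400 and 0.429.

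Promoter letters are shown for the globins whose ratio was shared, since globin is what the label's marker and the weights used further on rest on. The 120 bases before the RefSeq start are given 5′ to 3′ on the gene's strand, with capitals on CACCC and GATA (either strand), the core letters bound by Klf1-type and Gata factors.
Hba-x (GRCm38.p6 chr11:32276480-32276599, plus strand): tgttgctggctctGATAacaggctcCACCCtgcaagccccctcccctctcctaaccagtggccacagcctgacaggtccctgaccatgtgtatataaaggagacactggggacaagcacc
Hbb-y (GRCm38.p6 chr7:103853208-103853327, minus strand): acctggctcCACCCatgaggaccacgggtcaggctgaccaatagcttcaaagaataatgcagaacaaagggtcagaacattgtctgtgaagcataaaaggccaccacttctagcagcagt
Hba-a1 (GRCm38.p6 chr11:32283552-32283671, plus strand): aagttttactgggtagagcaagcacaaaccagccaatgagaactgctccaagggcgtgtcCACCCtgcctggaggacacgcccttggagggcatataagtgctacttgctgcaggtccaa
All 3 hold CACCC, and Hba-x also holds GATA. CACCC stood in 31.7% and GATA in 29.5% of 32851 promoters of this length, so that a match is common and describes letters only.

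All globins together made up 8.36%, 5.34% and 10.0% of UMIs in the labelled cells and 22.6%, 13.8% and 31.9% in Erythroid cells, a mean ratio of 0.357 ± 0.037 (SD, n = 3 libraries). In E8.5 WT A the labelled cells ranged from 5.94% to 19.0% with a median of 7.40%, and 46 of 47 lay under the 10th percentile of Erythroid cells (15.6%). In E8.5 WT B the range was 1.44% to 11.0% with a median of 5.15%, and 8 of 14 lay under that mark (5.58%). In E9.5 WT A the range was 8.14% to 13.2% and 11 of 11 lay under it (23.6%). All other cells of these libraries had medians of 0.124%, 0.109% and 0.0995%, and every labelled cell lay above the 95th percentile of those cells. Globin at this level was not particular to the label. MEP cells, another blood label, held 9.01% globin in E8.5 WT A (8 cells) and 5.51% in E8.5 WT B (14 cells), with Hbb-bh1 at 1.43% and 0.981%.

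**Figure D2:**
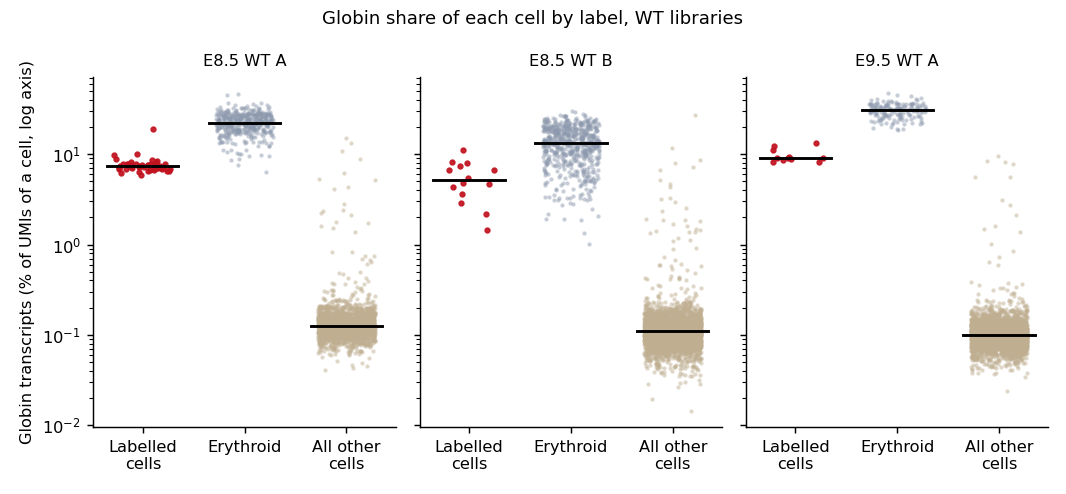
Globin transcripts as percent of the UMIs of each cell (log axis) in labelled cells, Erythroid cells and all other cells of the 3 WT libraries, with black lines at the medians. The labelled cells lie at medians of 7.40%, 5.15% and 9.03%, between the Erythroid cells and the remaining cells.

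The levels of all other genes were compared as log2 ratios of labelled over Erythroid cells of the same library, on the scale of CPM plus 1, with CPM taken here and from here on over the non-globin UMIs. Because the label was transferred from the expression of these cells, the ratios are a description and no test is given. The transfer itself left out haemoglobin and Y-linked genes and Xist. A gene was counted as higher or lower when it differed at least 2-fold in the same direction in all 3 libraries. Of 7867 genes with at least 10 CPM on either side, 1017 were higher (12.9%) and 133 were lower (1.69%), and the median log2 ratio was 0.12. With TMM factors the counts were 710 and 377, so that 65.3% rather than 88.4% of the counted genes were higher, and the median moved to -0.31. With all UMIs in the total the median was 0.38. Required in fewer libraries, the lower genes rose to 202 without E8.5 WT A and to 353 without E8.5 WT B.

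Many genes of the red cell program were lower. Of 15 erythroid transcription factor genes that passed the filter, of 17 listed, 6 were lower and 1 was higher (median log2 ratio -1.57 over 17). Gata1, which opens the erythroid program, stood at 36.5, 44.0 and 28.7 CPM in labelled cells and at 113, 115 and 110 in Erythroid cells. Klf1, the activator of globin and membrane genes, stood at 91.2, 95.2 and 96.8 against 285, 241 and 328. Both were lower in each of the 3 libraries, by -1.62 ± 0.27 and -1.57 ± 0.22 on the log2 scale (SD, n = 3). Zfpm1, the partner of Gata1, Lmo2, Lyl1 and Ikzf1 were the other lower members. Ldb1, which bridges these factors, did not pass the 2-fold rule (0.30 ± 0.10). Sox6 was the higher member, on 15 UMIs in labelled cells.

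Haem synthesis and membrane genes followed the same direction. Of 9 haem enzymes 6 were lower (median -1.57). Alas2, the red cell form of the first enzyme, stood at 100, 142 and 122 CPM against 459, 335 and 837. Alad, the second enzyme, stood at 529, 437 and 516 against 1564, 1136 and 1720. Alas1, the form used in most other tissues, had a log2 ratio of 1.40 ± 0.53 and did not pass the rule. Of 12 membrane and skeleton genes that passed the filter, of 13 listed, 5 were lower (median -1.90 over 13). Epb42, which ties the skeleton to the membrane, stood at 11.7, 7.33 and 7.17 against 53.0, 39.3 and 101.

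Iron genes, erythroid cytokine genes and late maturation genes gave smaller counts. Of 11 iron genes that passed the filter, of 12 listed, 2 were lower (median -1.38 over 12). The lower ones were the transferrin receptor Tfrc and the ferrireductase Steap3. Of 9 cytokine receptor and JAK-STAT genes that passed, of 15 listed, 2 were lower (median -0.96 over 15, or -1.11, -0.09 and -1.35 by library). These were Epor, the erythropoietin receptor (24.8, 34.2 and 46.6 against 114, 105 and 151 CPM), and Csf2rb, the common beta chain of the interleukin-3 family. Of 9 late maturation genes that passed, of 12 listed, 4 were lower (median -1.42 over 11), among them Hemgn and the carbonic anhydrase Car2. The shares of lower genes in all these red cell lists exceeded the 1.69% over all genes, and since the label was drawn from expression nothing is read from this.

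The genes with the lowest ratios that rested on more than 3 labelled-cell UMIs were Slc16a10, an amino acid transporter (-3.20 ± 2.19, 11 UMIs), Fam46c (-3.19 ± 2.38, 12 UMIs), Ache, acetylcholinesterase (-3.09 ± 1.06, 4 UMIs), and Pklr, the red cell pyruvate kinase (-2.96 ± 1.15, 9 UMIs). Grap2, Epb42, the kinase gene Wnk4 and the integrin Itga2b followed. Mfsd2b, Ddhd1 and Zdhhc14 were each counted by 2 UMIs in labelled cells, and Flt3l by 0, against 242 to 483 in Erythroid cells.

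The highest ratios were those of Osr1, a transcription factor of intermediate and lateral mesoderm (4.28 ± 0.76), Sparc, a matrix glycoprotein (4.22 ± 1.09), Sfrp1, a secreted Wnt modulator (4.07 ± 0.40), Vim, the mesenchymal filament protein (4.06 ± 0.79), and Cdkn1c (4.05 ± 0.80). Sparc lies on chromosome 11 (GRCm38, 55394500 to 55423183, minus strand) and reached 180, 190 and 104 CPM in labelled cells against 3.62, 9.08 and 11.1 in Erythroid cells. Vim lies on chromosome 2 (13573927 to 13582826, plus strand) and reached 293, 208 and 502 against 9.35, 11.1 and 52.1. Both genes were picked by this ratio, so nothing is read from the separation of their values. Basp1, a neuronal and mesenchymal membrane protein, Barx1 and Nkx2-9, homeobox genes of stomach or facial mesenchyme and of the ventral neural tube, Krt8, a keratin of simple epithelia, Pmp22, Slc27a3 and Mfap2 completed the 12 genes.

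Most genes of the neural tube, mesenchyme and epithelial lists were higher. Of 10 neural tube genes 9 were higher in labelled cells (median log2 ratio 2.62), against 12.9% of all genes. Sox2, a neural and pluripotency factor, stood at 48.2, 39.1 and 93.2 CPM against 3.96, 8.94 and 13.8, and Pax6, a patterning factor of brain and eye, at 18.2, 34.2 and 43.0 against 1.57, 3.90 and 7.90. Of 10 embryonic mesenchyme genes 7 were higher (median 3.06), with Twist1, a mesoderm and neural crest factor, at 111, 85.5 and 183 against 7.78, 8.02 and 18.7. Of 6 epithelial genes that passed the filter, of 7 listed, 6 were higher (median 2.75 over 7). Krt18 among them stood at 235, 303 and 46.6 against 8.19, 16.9 and 8.19. Of 3 somite genes 1 was higher (Foxc1) and of 5 heart muscle genes 1 (Myl4). These 5 lists were written after the first ratios had been seen.

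**Figure D3:**
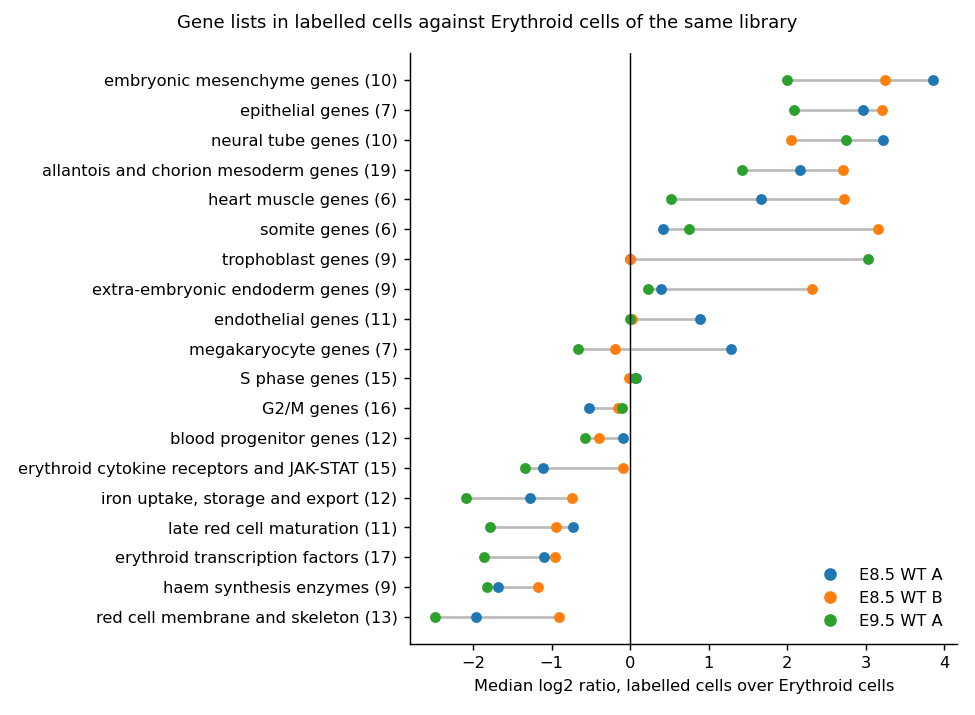
Median log2 ratio of labelled over Erythroid cells for each gene list (number of genes with a UMI in parentheses), with 1 point per WT library and a grey bar over their range. Red cell lists lie left of 0. Neural tube, mesenchyme, epithelial, allantois, heart muscle, somite and extra-embryonic endoderm lists lie right of it in all 3 libraries. The neural tube, mesenchyme, epithelial, somite and heart muscle lists were written after the first ratios had been seen.

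Genes of the chorion and allantois lay mostly above Erythroid cells. Of 20 genes listed, 19 were in the matrix and 10 passed the filter, of which 7 were higher than in Erythroid cells and 0 lower (median 2.05 over 19), against 12.9% higher over all genes. Summed over the list, the level was 17.7, 7.56 and 6.19 times that of Erythroid cells. The higher members included Bmp4, a mesoderm inducer (37.8, 26.9 and 32.3 CPM against 1.43, 3.12 and 1.46), Msx1 (28.7, 65.9 and 57.4 against 2.73, 7.95 and 4.39), Pitx1 and Cdx2, genes also used in limb, neural crest or gut. Other allantois markers were split. Hoxa13, Hoxa11 and Tbx4 were nearly undetected, with 0, 1 and 3 UMIs over all labelled cells of the 3 libraries. Hand1 and Vcam1 were present, with means of 52.9 and 8.52 CPM in labelled cells, against 33.5 and 4.41 in the weighted sum described below. Hoxa13, Hoxa11 and Tbx4 were named after their values were seen, and the weighted sum put them at low levels too. Of the label's own marker, Hbb-bh1, the labelled cells held more than Allantois cells and less than Erythroid cells, so the marker did not single them out and they are called labelled cells throughout.

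Blood progenitor and other lineage markers were uneven, and several of them were sparse. Of 7 blood progenitor genes that passed the filter, of 12 listed, 2 were higher and 1 was lower (median -0.53 over 12). The higher ones were the homeobox genes Meis1 and Hoxa9, and the lower one was Itga2b. Over all genes 12.9% were higher and 1.69% lower, and too few genes were tested in this and the next lists to set their counts against those shares. Kit was counted by 3 UMIs, Gata2 by 2, Spi1 by 8 and Cd34 by 8 in labelled cells, whereas Meis1 had a mean of 49.1 CPM. Summed, the blood progenitor list stood at 222, 261 and 222 CPM, against 381, 342 and 369 in Erythroid cells. Endothelial genes gave 0 calls of 2 tested, with Kdr at 11.7, 46.4 and 0 CPM. Their list summed to 92.5, 132 and 39.4 CPM, against 60.2, 75.4 and 39.2 in Erythroid cells. Megakaryocyte genes gave 0 of 2, and their median turned from 0.31 to -0.23 when cells were thinned. Macrophage genes passed the filter in 0 of 10 cases, with Csf1r and Ptprc at 0 UMIs in labelled cells. In extra-embryonic endoderm 1 of 3 tested genes was higher (Apoe, with a mean of 41.3 CPM). In trophoblast 1 of 4 was higher (Cdx2), with Rhox9 present in E9.5 WT A only (53.8 CPM). The trophoblast list summed to 14.3, 24.4 and 190 CPM in labelled cells.

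Cell cycle genes gave no calls, against 12.9% of all genes higher and 1.69% lower. Of 15 S phase genes 0 were called (median 0.00, 0.26 with CPM over all UMIs and -0.40 with TMM factors) and of 16 G2/M genes 0 were called (median -0.27). Mki67, a proliferation marker, stood at 120, 361 and 237 CPM in labelled cells against 433, 403 and 913. Rrm2, which supplies deoxynucleotides, stood at 313, 222 and 394 against 197, 225 and 198.

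The summed profile of labelled cells held genes of several tissue lists, which does not show that single cells held them together. It was set beside a weighted sum of the Erythroid profile and of the profile of all remaining cells of the same library. The weight was set by the globin share alone and came to 36.4%, 37.9% and 31.2% Erythroid in the 3 libraries. Globins and mitochondrially encoded genes were left out of the genes compared with the weighted sum. Mitochondrially encoded genes were also left out of the matching of single cells and of the likeness to single types below. Across the 7490 to 8245 genes, Pearson's r of the log2 levels was 0.955, 0.946 and 0.888 with the weighted sum. It was 0.831, 0.845 and 0.791 with Erythroid cells alone and 0.918, 0.916 and 0.851 with the remaining cells alone. These correlations are across genes, which are not replicates, and the profiles come from the same library and share its depth and free RNA, so they carry no p. Within 2-fold of the weighted sum lay 93.6%, 92.9% and 83.6% of genes, against 72.8%, 73.1% and 64.6% for Erythroid cells alone and 88.3%, 90.4% and 79.2% for the remaining cells alone. The weight that gave the highest r, in steps of 5, was 35%, 35% and 40%.

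**Figure D4:**
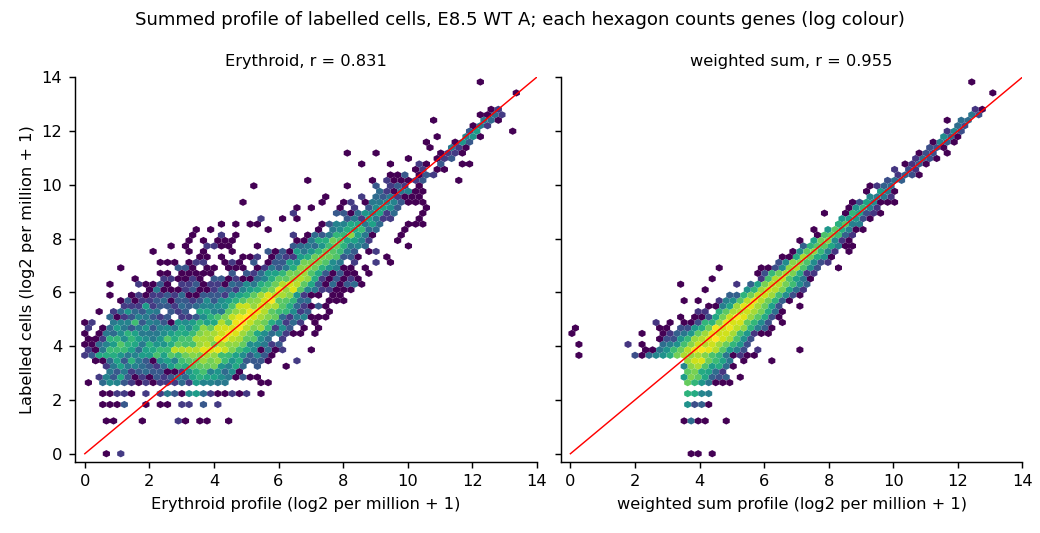
Summed profile of the 47 labelled cells of E8.5 WT A (log2 of non-globin CPM plus 1) against the Erythroid profile (left, r = 0.831) and the weighted sum of Erythroid and all other cells (right, r = 0.955), with each hexagon shaded by its number of genes on a log scale and the red line at equality. Points lie closer to the line on the right, with 93.6% of genes within 2-fold against 72.8% on the left (88.3% for all other cells alone, not drawn), and some genes stay far from it.

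Of 8027 genes compared with the weighted sum, 3 lay at least 2-fold above it in all 3 libraries (Notch2, Tmem181a and D930028M14Rik) and 14 below it, several of them markers of single tissues such as Ttr and Apoa1 of the endoderm and Myl7, Myh7 and Tnnc1 of the heart. These genes were named after their values were seen. Summed over each list, levels in labelled cells were 0.88, 1.19 and 0.84 of the weighted sum for erythroid transcription factors, 0.84, 1.09 and 0.93 for haem enzymes, 0.98, 1.23 and 0.57 for allantois and chorion genes, 0.72, 0.73 and 0.97 for neural tube genes and 1.15, 1.47 and 0.69 for mesenchyme genes. Red cell membrane and skeleton genes stood at 0.70, 1.21 and 0.67 and epithelial genes at 1.26, 1.47 and 0.54. Some other lists departed further. Heart muscle genes stood at 0.38, 0.45 and 0.22, extra-embryonic endoderm genes at 0.31, 0.72 and 0.37, and macrophage genes at 0.26, 0.50 and 0.16. Megakaryocyte genes stood at 1.35, 0.46 and 0.29 and trophoblast genes at 0.58, 0.69 and 5.58. No list of red cell genes had a member 2-fold from the weighted sum in all 3 libraries. Only 3 and 14 of all 8027 genes were, so this absence is near what held over all genes and nothing is read from it.

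Each labelled cell was also matched to the profile under which its counts were most likely: Erythroid alone, 1 other type of its library alone, Erythroid with 1 other type, or Erythroid with all other cells, in weight steps of 5%. Other types were offered singly only when they had at least 20 cells in the library. MEP had fewer in E8.5 WT A and E8.5 WT B, so no labelled cell there could match it. In E8.5 WT A 46 of 47 labelled cells matched Erythroid with all other cells, at Erythroid weights of 25% to 45%. In E8.5 WT B 7 of 14 matched that sum and 7 matched Erythroid with 1 other type. In E9.5 WT A 8 of 11 matched that sum, at 30% to 40%, and 3 matched Erythroid with 1 other type. The 5 labelled cells of E9.5 WT B and WT D, the 2 of E8.5 null A and the 1 of E9.5 null C all matched Erythroid with 1 other type, such as Limb mesoderm, Lateral plate mesoderm or YS mesothelium. Over these WT libraries 61 of 77 labelled cells (79.2%) and 6 of 1390 Erythroid cells (0.432%) matched Erythroid with all other cells. Of these 61 labelled cells 52 held under 0.5% mitochondrial UMIs, among 53 such cells in all, whereas of the other 24 cells 9 matched that sum and 15 matched Erythroid with 1 other type. The part of low mitochondrial content in these matches was not tested. Erythroid cells contribute to their own profile, whereas the labelled cells were not offered a profile of their own, so the shares of both labels cannot be set against each other. For E9.5 null C, with 2 Erythroid cells, the Erythroid profile came from WT cells of E9.5.

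Genes of lists drawn for separate tissues were found within single cells. The neural tube and mesenchyme lists were written after the first ratios had been seen, and 1 UMI of a list does not mark a tissue. In E8.5 WT A the mesenchyme list was held by 85 of 92 Optic vesicle cells and the neural tube list by 21 of 43 Allantois cells. At least 1 UMI each of the erythroid genes Gata1, Klf1, Alas2, Epor or Rhag, of the neural tube list and of the mesenchyme list was present in 39 of 47 labelled cells of E8.5 WT A (83.0%, 69.2% to 92.4%), against 67 of 426 Erythroid cells (15.7%). In that library 14 of 92 Optic vesicle, 5 of 43 Allantois and 4 of 69 Limb mesoderm cells held all of them. The counts that follow are for labelled and Erythroid cells. After each cell was thinned to 10000 UMIs, which left out no cell, the counts were 35 of 47 and 8 of 426. For E8.5 WT B they were 9 of 14 and 95 of 622, and thinned 5 of 14 and 29 of 622. In E9.5 WT A they were 10 of 11 and 106 of 164, and thinned 9 of 11 and 42 of 164. The median depths were 14504 and 42665 UMIs in E8.5 WT A, 31738.5 and 25352.5 in E8.5 WT B, and 27142 and 23235 in E9.5 WT A.

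The likeness to single types was ordered over the 61 types with at least 20 WT E8.5 cells. The 5 nearest were Lateral plate mesoderm (r = 0.905 across 7071 genes), Limb mesoderm (0.903), Cranial mesoderm (0.903), Non-neural ectoderm (0.901) and Migratory neural crest (0.901), which differ too little to be ranked. Allantois had r = 0.884, Erythroid 0.859 and EMP, the erythro-myeloid progenitors, 0.834. The order differed between the libraries pooled here, with Allantois at rank 22 of 35 types in WT A (r = 0.845) and 10 of 50 in WT B (r = 0.865), and Erythroid at rank 29 and 32.

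In E8.5 WT B, where cells of both sexes were present, sex-linked transcripts were read in single cells. Xist, made from the inactive X of female cells, and at least 1 of the Y-linked Ddx3y, Eif2s3y, Kdm5d or Uty were found together in 12 of 14 labelled cells (85.7%, exact 95% interval 57.2% to 98.2%). They were found together in 49 of 622 Erythroid cells (7.88%, 5.88% to 10.3%) and 174 of 3189 other cells (5.46%, 4.69% to 6.30%), at median depths of 31738.5, 25352.5 and 17251 UMIs. Thinned to 10000 UMIs, the counts were 9 of 14 and 20 of 622. The 12 cells held 2 to 12 UMIs of Xist and 1 to 6 Y-linked UMIs. E8.5 WT A and E9.5 WT A could not be read this way, since Xist was held by 0 of 47 labelled and 4 of 426 Erythroid cells in the first and by 0 of 11 and 2 of 164 in the second.

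The authors' doublet score differed between libraries. It had a median of 0.750 in labelled cells of E8.5 WT B, against 0.100 in Erythroid cells and 0.200 in all other cells. In E9.5 WT A the medians were 0.410, 0.060 and 0.240. In E8.5 WT A they were 0.150, 0.110 and 0.250, so that labelled cells lay below the other cells there. Cells above the cutoff of 1 had been called doublets and left out beforehand, which bounds all these scores. The highest score of a labelled cell was 0.98. Mitochondrial transcripts were scarce in labelled cells of E8.5 WT A and E9.5 WT A and frequent in those of E8.5 WT B. Fewer than 0.5% of UMIs were mitochondrial in 44 of 47 labelled cells of E8.5 WT A (93.6%), against 98 of 426 Erythroid cells (23.0%) and 403 of 2071 others (19.5%). In E9.5 WT A the counts were 9 of 11, 19 of 164 and 544 of 2905. E8.5 WT B gave 0 of 14, 52 of 622 and 321 of 3189, and the median was 2.44% in labelled cells and 1.06% in the others. The part of these values in the levels above was not tested.

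**Figure D5:**
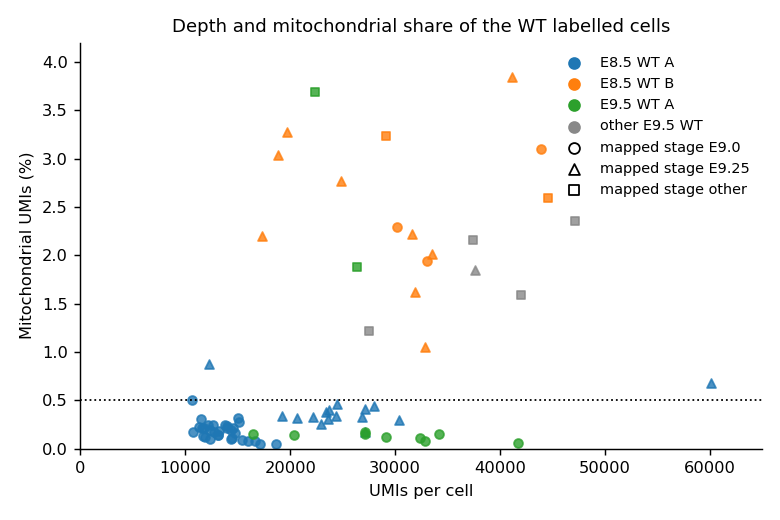
UMIs per cell and mitochondrial share of the 77 WT labelled cells, colored by library and shaped by the atlas stage of the label transfer, with a dotted line at 0.5%. Under the line lie 44 of 47 cells of E8.5 WT A and 9 of 11 of E9.5 WT A, and all 14 cells of E8.5 WT B lie above it.

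Within E8.5 WT A the labelled cells fell into groups by the atlas stage to which they were mapped. The 31 cells mapped to E9.0 held 10671 to 18642 UMIs (median 13261), had label scores, the fraction of nearest atlas cells that bear the label, of 0.36 to 0.88 (median 0.64) and carried 5.94% to 8.62% globin. The 16 cells mapped to E9.25 held 12226 to 60052 UMIs (median 24036), had label scores of 0.72 to 1.00 (median 1.00) and carried 6.18% to 19.0% globin. Their globin shares overlapped, while 3 in 4 cells of the second set held at least 22729.25 UMIs, more than any of the first. The 47 cells had only 16 different nearest cells in the atlas, of which 1 was nearest to 10 cells. Of 14 cells in E8.5 WT B 9 were mapped to E9.25, and in E9.5 WT A 9 of 11 to E9.0.

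The 3 null cells are given singly. Those of E8.5 null A held 16060 and 22733 UMIs, of which 16.1% and 17.1% were globin and 1.59% and 1.54% Hbb-bh1. Erythroid cells of that library held 20.3% globin and 1.92% Hbb-bh1. The cell of E9.5 null C held 11278 UMIs, 16.9% of them globin and 0.763% Hbb-bh1, against 31.0% and 3.66% in the 2 Erythroid cells of its library. At the same stage the labelled cells of E9.5 WT B held 18.9% and 16.1% globin, and those of E9.5 WT D 9.44%, 12.3% and 10.1%. All 3 held tdTomato UMIs (2, 5 and 5). The 3 cells from 2 libraries allow no comparison of genotypes within the label.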

How the data were processed

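Single cells from 16 libraries of *Stat3* chimeras were measured with 10x Genomics 3′ v3 chemistry. The authors made the deposited counts with Cell Ranger on mm10, with the GRCm38.p5 annotation and the tdTomato sequence added, as UMI counts per gene and cell, and kept cells by reads, genes, and mitochondrial and ribosomal content. The deposited percent values give the mitochondrial part of each cell's UMIs as the authors computed it. The deposited label score is the fraction of the 25 nearest atlas cells that bear the label transferred by the authors. The deposited doublet score came from the authors' scds run. Unmatched sample columns numbered 0.

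Groups were taken from the labels. Cell numbers were tested with edgeR 4.0.16 (quasi-likelihood, TMM factors, R 4.3.3), with DESeq2 1.42.0 as an alternative, and shares with an exact permutation test (scipy 1.17.1). UMIs were summed per label and library and scaled to CPM over non-globin UMIs, with a pseudocount of 1, a minimum of 10 CPM and at least 10 cells of each label. Thinned cells were drawn to 10000 UMIs. Library totals are given in the report, and binomial intervals (95%, Clopper-Pearson) and limits for 0 (3 cells) cover counting error only. Lists held genes of known roles, and beyond them the 12 highest and 12 lowest genes by mean log2 ratio with at least 20 UMIs were named, predicted genes left out. The members and lists were chosen with earlier results of these data known, and 5 lists were added after the first ratios were seen. Some items are not reported here and were left out of the lists and of the counts over them. The edgeR and fold steps were tested on simulated data. Promoter letters are from RefSeq (GRCm38.p6). The *Stat3* deletion removes internal exons, which 3′ counting does not read directly.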

Additional observations from a re-analysis of the deposited data

Results flagged for a closer look

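At E9.5 a single labelled cell in null C set that library apart from the other 3 null libraries, which held none. It made up 0.0628% of the cells of null C and 33.3% of its 3 cells labelled either way. Both values rest on this same cell. A lone cell in any of 4 libraries would stand out in this way, so nothing is read from it.

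Among WT-sorted cells of E8.5 WT A that carried the label, before cells with tdTomato were left out, 3 of 50 (6.0%, exact 95% interval 1.25% to 16.5%) held a UMI of tdTomato, which host cells do not carry. In the same library 1 of 427 Erythroid cells (0.234%) and 8 of 2079 other cells (0.385%) held it. All 3 cells were mapped to atlas stage E9.25, where they were 3 of 19, against 0 of 31 at E9.0. They held 22858, 25617 and 27518 UMIs, whereas no cell mapped to E9.0 held more than 18642. Depth thus differed between the stages, and its part was not tested. In E8.5 WT B 0 of 14 and in E9.5 WT A 0 of 11 labelled cells held it, and in E9.5 WT A 105 of 3010 other cells did (3.49%). The cause was not tested.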

How the results depend on the processing

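No paired analysis was possible because the library names do not tell which null and WT libraries came from the same embryo pool. The E8.5 difference in cell number kept its direction under all alternatives run, and with 1 library left out it ranged from -7.57 to -4.17 on the log2 scale, passing the edgeR threshold only without WT B (-5.37, adjusted p = 0.0230). These fits also took in all stages, which with all libraries gave -4.63 (edgeR adjusted p = 0.109), and borrowed the spread of a single remaining library from the other stages. Over the other edgeR alternatives with all libraries the adjusted p was 0.109 to 0.490. Without WT A 16 labelled cells remained, under the minimum of 20, and no value was had. The share among cells labelled either way ranged from -9.77 to -2.03 points with 1 library left out, and was -1.47 without cells under 0.5% mitochondrial UMIs and -1.08 among all cells.

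The 1017 higher and 133 lower genes became 77 lower with CPM over all UMIs, 377 lower with TMM factors, 214 lower with no filter, 410 and 65 with a pseudocount of 10, and 616 and 28 at 3-fold. Fewer libraries entered, so that more genes could pass, when more than 15 cells were required (1555 and 539), when cells under 0.5% mitochondrial UMIs were left out (1691 and 382) or label scores under 0.7 (612 lower). With 1 library left out the lower genes numbered 161 to 353 and the higher genes 1236 to 1248. The globin ratio was 0.395 without label scores under 0.7 and 0.342 to 0.378 with 1 library left out. The settings on low mitochondrial content and label score were chosen after seeing the data. With 3 null cells, genes could not be compared between genotypes.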
